A study of Mus musculus with 32 samples.

Results

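ChREBP, the glucose-sensing transcription factor encoded by Mlxipl, and the Max/Mlx network of factors around it were followed in mouse brown adipose tissue. The network was taken as 10 genes, Mlxipl, Mlx, Mlxip, Max, Mxd1, Mxd4, Mxi1, Mnt, Mga and Myc. Its members were all array probes that carry one of these gene names in the scanner files and are listed in the deposited value table. This gave 22 probes of 37304 in that table, for 10 of the 24523 gene names fitted, and no probe with one of these names fell outside it. Mga had 4 probes, Mlxipl had 3, Mnt had 1 and each of the other 7 genes had 2.

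RNA of interscapular brown fat from 32 male C57BL6/J mice was hybridised to 1-colour Agilent arrays in 4 groups of 8. Total ChREBP KO mice are Mlxipl-null in the whole body and were compared with WT littermates of that line. ChREBPβ KO mice lack Mlxipl exon 1b, the first exon of the β isoform, in the whole body after CRISPR/Cas9 editing of embryos, and were compared with WT littermates of their own line. On a regular diet, every mouse went through a fast of 24 hours and then had 18 hours of food and of water with 20% glucose, so there was no fasted group. The ages of the mice and the part of Mlxipl that the null allele lacks were not given in the sources used here. Mice of the β line came from several litters, and which of the edited transgenic lines gave the array samples was not given in the sources used here.

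Factors of this network bind DNA as pairs at E-boxes, short motifs with the core CACGTG. Mlx is the shared partner of ChREBP, of its paralogue MondoA (Mlxip) and of the MXD and MNT repressors, while Max is the partner of MYC and of MXD, MNT and MGA proteins. In fat and liver, ChREBP paired with Mlx binds carbohydrate response elements, which hold a pair of E-box-like motifs 5 bases apart, and turns on glycolytic and lipogenic genes when glucose is plentiful. The Mlxipl gene has alternative first exons. The α isoform starts at exon 1a, and the shorter, constitutively nuclear β isoform starts at exon 1b further upstream. MXD, MXI1 and MNT recruit SIN3 and histone deacetylases, and MGA belongs to a variant Polycomb complex. MYC drives genes of nucleolar and biosynthetic growth.

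The probes of Mlxipl are shown first because they disagreed with each other. Stretches of 30 bases of the 60-base probes follow, 5′ to 3′, with capitals for the window (of 20 bases, or of 16 where none of 20 was shared) found in the most probes of other genes.
A_55_P2119957, bases 11 to 40: atgaatgtagatgtgtgtgtgcgtatgtgg
A_55_P2045158, bases 29 to 58: tgatgCACACCTTTAATCCCAgtacttggg
A_55_P2728555, bases 28 to 57: ctctaCTACACAGAGAAACCCTGTCtcaaa
Probe A_55_P2119957 shared no 16-base window with a probe of another gene. Probe A_55_P2045158 shared such windows with 4 other probes, and A_55_P2728555 with 16, of which 8 still matched over 20 bases and 6 held the capitals shown. Both runs resemble B1, an interspersed repeat that the mouse genome holds in very many copies. Of the other 19 member probes none shared a 16-base window on its own strand, and 1 Mlx probe, A_66_P117739, shared one with the opposite strand of 1 probe.

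On mouse build mm9, all 3 Mlxipl probes lie on the plus strand of chromosome 5. A_55_P2728555 is the most upstream, at chr5:135598483-135599113, a span of 631 bases for a 60-base probe, and it was designed on a cDNA clone (BC064053) that the array file describes as having an apparent retained intron. A_55_P2119957, at chr5:135613705-135613764, starts 15222 bases further downstream, and A_55_P2045158, at chr5:135614195-135614252, starts another 490 bases on. Both of these were designed on the RefSeq transcript NM_021455. Their exon or UTR cannot be stated because no mm9 annotation was at hand, and for the same reason none of the probes was taken as a test of the deleted exon itself.

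RefSeq lists 2 start sites for Mlxipl on GRCm38.p6, 17001 bases apart. The study places the β promoter upstream of exon 1a, and the promoter table does not name the transcript of each start. The 250 bases before each start follow, with the E-box core in capitals.
Upstream start, chr5:135089640-135089889, plus strand: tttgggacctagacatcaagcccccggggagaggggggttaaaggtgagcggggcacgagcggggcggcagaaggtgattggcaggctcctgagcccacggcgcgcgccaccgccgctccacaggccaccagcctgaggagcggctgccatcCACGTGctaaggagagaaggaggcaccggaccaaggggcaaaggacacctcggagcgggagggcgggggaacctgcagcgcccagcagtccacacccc
Downstream start, chr5:135106641-135106890, plus strand: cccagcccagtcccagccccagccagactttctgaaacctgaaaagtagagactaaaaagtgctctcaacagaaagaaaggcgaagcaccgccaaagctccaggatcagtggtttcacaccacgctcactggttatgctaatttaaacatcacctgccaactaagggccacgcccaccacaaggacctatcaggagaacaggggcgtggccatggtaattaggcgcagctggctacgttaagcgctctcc
The upstream window held CACGTG at -98 from the start and the downstream window did not hold it. CACGTG reads the same on both strands. Over windows from 250 bases before to 50 after the start, 5 of the 12 promoters listed for 9 of the 10 genes held it (41.7%), against 7.15% of all 32851 promoters. They were the upstream Mlxipl start, Mxd4 at -219, Mnt at -123, Mlx at -40 and Max at -3. The windows of Mga, Mlxip, Mxd1 and the 3 starts of Mxi1 held none. The motif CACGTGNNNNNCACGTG, with N for any base, was in 0 of all these promoters. A match is only a description of letters, and no binding was measured.

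The targeted gene changed in both KO lines, but not on every probe. On A_55_P2119957, the brightest Mlxipl probe, the log2 intensity ran from 15.98 over a median of 16.16 to 16.33 in the WT mice of the total line and from 13.49 over 13.64 to 13.91 in total ChREBP KO. In the β line it ran from 16.15 over 16.30 to 16.55 in WT and from 14.68 over 14.85 to 14.99 in ChREBPβ KO. Every KO array lay below every WT array of its line, and ChREBPβ KO arrays all lay above total ChREBP KO arrays. The signal fell by 2.48 ± 0.07 on the log2 scale (SE, 5.57-fold, limma adjusted p = 2.02e-24) in total ChREBP KO, and it fell by 1.498 ± 0.066 (2.82-fold, limma adjusted p = 7.09e-17) in ChREBPβ KO. The fall was smaller in ChREBPβ KO by 0.98 (95% interval 0.79 to 1.17, limma adjusted p = 1.06e-09). Within the 4 wash batches named in the labels it lay between -2.60 and -2.35 in total ChREBP KO and between -1.68 and -1.39 in ChREBPβ KO.

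The upstream probe A_55_P2728555 gave another order of the KO effects. Its log2 intensity ran from 10.66 over 11.15 to 11.38 in total-line WT, from 9.99 over 10.37 to 10.52 in total ChREBP KO, from 11.47 over 11.72 to 12.10 in β-line WT and from 10.35 over 10.66 to 11.02 in ChREBPβ KO. Again no KO array reached a WT array of its own line. It fell by 0.77 ± 0.10 (SE, limma adjusted p = 2.93e-07) in total ChREBP KO and by 1.14 ± 0.10 (limma adjusted p = 2.47e-08) in ChREBPβ KO. The difference between these effects, -0.37 (95% interval -0.67 to -0.07), did not pass adjustment (limma adjusted p = 0.0658). It passed with wash batch as a block (-0.43, limma adjusted p = 0.0214), and with slide as a block it was -0.27 (limma adjusted p = 0.209). The 16 probes of other genes that share its 16-base windows had log2 differences between -0.21 and 0.41 in total ChREBP KO, 5 called higher and 2 lower, and between -0.12 and 0.04 in ChREBPβ KO, none called.

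The most downstream probe, A_55_P2045158, did not follow the others. It ran from 10.97 over 11.24 to 11.40 in total-line WT and from 11.12 over 11.34 to 11.57 in total ChREBP KO, a difference of 0.14 ± 0.06 (SE, limma adjusted p = 0.068). In the β line it ran from 11.33 over 11.42 to 11.56 in WT and from 11.18 over 11.38 to 11.49 in ChREBPβ KO, a difference of -0.08 ± 0.06 (limma adjusted p = 0.625). The groups overlapped in both lines. The 4 probes that share its windows lay between 0.06 and 0.22 in total ChREBP KO, 2 of them called higher, and between -0.06 and 0.03 in ChREBPβ KO. The part of the repeat-like runs in these signals was not tested. A signal well above background remained on all 3 probes on all 32 arrays. With the exact permutation test, two-sided and over every split of a line's 16 arrays into 8 and 8, the p values of A_55_P2119957 and A_55_P2728555 were 0.000155 in each line, the smallest that this design allows, and those of A_55_P2045158 were 0.0625 and 0.105.

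**Figure D1:**
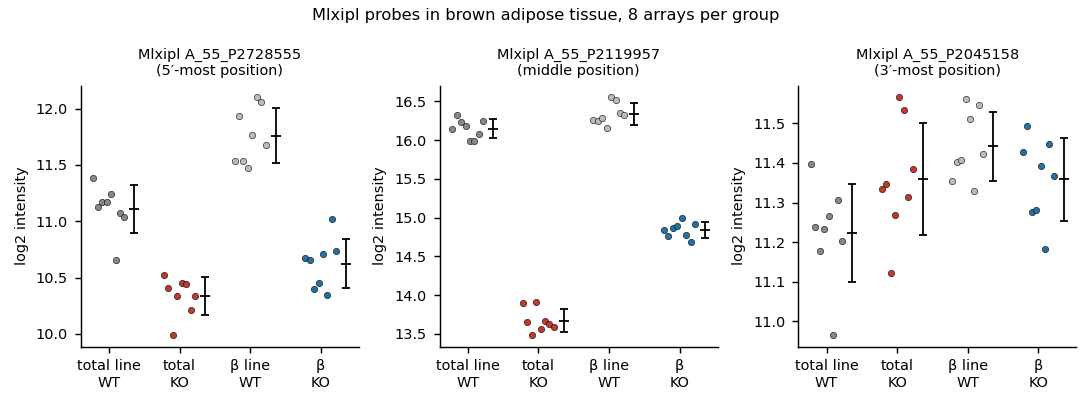
Log2 intensity of the 3 Mlxipl probes, ordered from 5′ to 3′ along the gene, with 1 point per array and the group mean with its SD beside each set of 8 arrays. On the first 2 probes all KO arrays lie below the WT arrays of their line, and on the 3′-most probe the groups overlap; each panel has its own axis.

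The WT groups of the lines also differed in Mlxipl. All 3 probes were higher in WT of the β line, A_55_P2728555 by 0.65 ± 0.10 (SE, limma adjusted p = 7.85e-06, without overlap), A_55_P2045158 by 0.22 ± 0.06 (limma adjusted p = 0.00417) and A_55_P2119957 by 0.19 ± 0.07 (limma adjusted p = 0.0219). Over the whole network 9 of 22 probes differed between the WT groups, 7 higher and 2 lower in the β line, and 39.2% of all probes did. The other 6 were Mxd1 A_51_P490795 (0.28 higher), Mxd4 A_52_P230650 (0.12 higher), Mnt (0.40 higher), Mga A_55_P2618975 (0.22 higher) and both Myc probes. The Mxd4 call (limma adjusted p = 0.0441) was kept under 4 of 13 other settings. It was kept in 21 of 32 fits that left out 1 array. The lines differ in far more than Mlxipl: the mean log2 intensity of 8 skeletal muscle markers lay between 12.46 and 16.18 on the total-line WT arrays and between 5.49 and 11.89 on the β-line WT arrays. With the muscle and hepatocyte marker means as covariates, only 2 of the 9 calls remained, Mlxipl A_55_P2728555 (0.40, limma adjusted p = 0.0484) and Mnt (0.45, limma adjusted p = 0.0491), and 1 other probe, Mlx A_66_P117739, was called. Line and muscle RNA cannot be told apart here, so each KO is set against its own WT group below. Within a line, none of the 8 muscle markers was called in either KO.

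In total ChREBP KO each gene of the network had at least 1 called probe, but with slide as a block Mxi1, Mnt and Mga had none. The share of all genes with at least 1 called probe is not given, so this count of genes has no background. Of 22 probes 14 passed the test, 8 higher and 6 lower. Among all 37306 probes fitted, 22.7% were higher and 20.5% lower, so that a large share of the array moved as well. In ChREBPβ KO only 2 of 22 probes passed, both of Mlxipl and both lower, against 1.3% of all probes higher and 1.26% lower. An unadjusted limma p below 0.05 was seen for 6. The share of all probes at that level is not given, here or for the lists below, so such counts have no background. The KO effects themselves differed for 6 probes, of Mlxipl, Mlx, Max, Mxd1, Mxd4 and Mga, against 24.1% of all probes. The median log2 difference of the 22 probes was 0.11 in total ChREBP KO (0.02 over all probes) and 0.00 in ChREBPβ KO (0.00 over all probes). In total ChREBP KO the probes of 7 of the 9 genes with several probes had the same sign, the exceptions being Mlxipl and Mxi1, and in ChREBPβ KO those of 4 did.

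**Figure D2:**
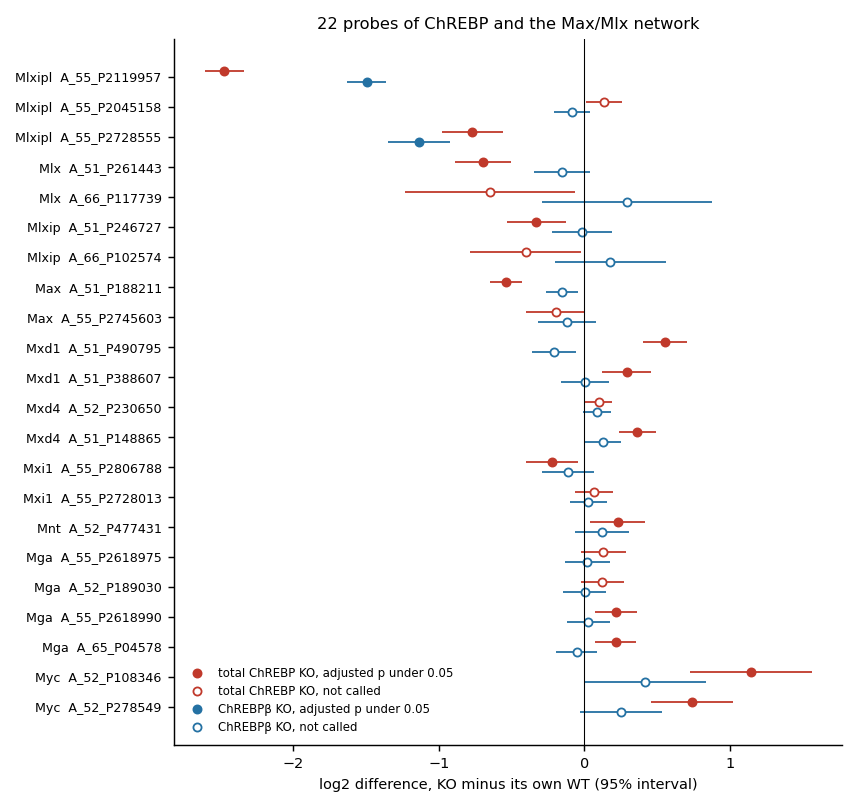
Log2 difference of each of the 22 probes in total ChREBP KO (red) and ChREBPβ KO (blue) against their own WT groups, with 95% intervals and filled points for limma adjusted p under 0.05. Filled red points stand on both sides of 0, and the only filled blue points are those of 2 Mlxipl probes.

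Of the dimerisation partners, Mlx and Max each fell on 1 of their 2 probes in total ChREBP KO. Mlx, without which ChREBP does not bind its elements, ran on probe A_51_P261443 from 11.18 over 11.42 to 11.80 in WT and from 10.33 over 10.69 to 11.24 in total ChREBP KO, where 7 of 8 arrays lay below every WT array. It fell by 0.70 ± 0.09 (SE, 1.62-fold, limma adjusted p = 3.23e-07). In the β line the same probe ran from 11.07 over 11.34 to 11.63 in WT and from 10.97 over 11.15 to 11.38 in ChREBPβ KO, a difference of -0.15 ± 0.09 (limma adjusted p = 0.535), and the KO effects differed by 0.55 (limma adjusted p = 0.0027). The other Mlx probe, A_66_P117739, gave -0.65 ± 0.29 in total ChREBP KO (limma adjusted p = 0.0656). One pooled error serves all groups, and 1 β-line WT array, replicate 3, read 5.03 where the other 7 lay between 7.64 and 8.38. Without that array the SE was 0.13 and the difference was called (limma adjusted p = 0.00017), while with slide as a block it was -0.10 (limma adjusted p = 0.875).

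Max, the obligate partner of MYC, fell on probe A_51_P188211, from WT values between 11.97 and 12.18 (median 12.07) to KO values between 11.37 and 11.66 (median 11.53), with no overlap. The fall was 0.54 ± 0.05 on the log2 scale (SE, 1.45-fold, limma adjusted p = 9.61e-10). In the β line this probe ran from 11.83 over 12.07 to 12.18 in WT and from 11.71 over 11.95 to 12.04 in ChREBPβ KO, a difference of -0.15 ± 0.05 (limma adjusted p = 0.144), and the KO effects differed by 0.39 (limma adjusted p = 0.000315). The other Max probe, A_55_P2745603, gave -0.20 ± 0.10 in total ChREBP KO (limma adjusted p = 0.105, called with wash batch as a block at -0.22, limma adjusted p = 0.0153). Its difference in the β line was -0.12 ± 0.10 (limma adjusted p = 0.693).

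Mlxip encodes MondoA, the glucose-responsive paralogue of ChREBP. Its probe A_51_P246727 ran from 8.49 over 8.65 to 8.93 in total-line WT and from 8.196 over 8.30 to 8.72 in total ChREBP KO, and fell by 0.33 ± 0.10 (SE, limma adjusted p = 0.00767). The highest KO array, at 8.72, stood apart from the other 7, which lay at or below 8.42. In ChREBPβ KO the difference was -0.02 ± 0.10 (limma adjusted p = 0.979), with arrays from 8.10 over 8.57 to 8.86 against 8.28 over 8.47 to 8.74 in WT. The dimmer probe A_66_P102574, well above background on 31 of 32 arrays, gave -0.40 ± 0.19 (limma adjusted p = 0.0831) in the total line. The β line gave 0.18 ± 0.19 (limma adjusted p = 0.776). The total ChREBP KO difference was called with wash batch as a block (-0.46, limma adjusted p = 0.00936) and with slide as a block (-0.40, limma adjusted p = 0.0414). Neither probe of the paralogue was called higher in either KO.

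Of the MXD repressors, Mxd1 rose on both of its probes and Mxd4 on 1 of 2 in total ChREBP KO. Mxd1, a repressor that competes with MYC for Max and also pairs with Mlx, ran on probe A_51_P490795 from 7.23 over 7.49 to 7.79 in total-line WT and from 7.93 over 8.08 to 8.30 in total ChREBP KO, with every KO array above every WT array. It rose by 0.55 ± 0.08 (SE, 1.47-fold, limma adjusted p = 3.51e-07). The other probe, A_51_P388607, rose by 0.29 ± 0.08 (limma adjusted p = 0.00423), a call lost with slide as a block (0.21, limma adjusted p = 0.0935). This probe was dim, from 4.99 over 5.10 to 5.19 in WT and from 5.13 over 5.37 to 5.80 in KO. Its difference lay between 0.13 and 0.52 over the other settings. In the β line A_51_P490795 ran from 7.59 over 7.82 to 8.11 in WT and from 7.33 over 7.65 to 7.77 in ChREBPβ KO, a difference of -0.21 ± 0.08 (limma adjusted p = 0.155). The ChREBPβ KO effect on A_51_P490795 minus the total ChREBP KO effect was -0.76 (limma adjusted p = 1.94e-06). In total ChREBP KO it was higher within each wash batch, by 0.36 to 0.70, and in ChREBPβ KO lower within each, by -0.25 to -0.15.

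Mxd4, a close relative of Mxd1, rose by 0.37 ± 0.06 (SE, limma adjusted p = 1.24e-05) on probe A_51_P148865 in total ChREBP KO, from WT values of 8.60 over 8.68 to 8.94 to KO values of 8.77 over 9.09 to 9.36. In ChREBPβ KO it was 0.13 ± 0.06 (limma adjusted p = 0.348), with arrays from 8.79 over 8.91 to 9.05 against 8.71 over 8.79 to 8.89 in WT. The ChREBPβ KO effect minus the total ChREBP KO effect was -0.24 (limma adjusted p = 0.0466), a call lost with wash batch as a block (limma adjusted p = 0.0658) and kept in 10 of 32 fits that left out 1 array. The other Mxd4 probe, A_52_P230650, gave 0.10 ± 0.05 (limma adjusted p = 0.0813) and 0.09 ± 0.05 (limma adjusted p = 0.42).

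Mxi1, the Mad family member also known as Mxd2, did not move with Mxd1. Its bright probe A_55_P2806788 fell by 0.22 ± 0.09 (SE, limma adjusted p = 0.039) in total ChREBP KO, from 10.60 over 10.82 to 11.09 in WT to 10.37 over 10.54 to 11.14 in KO, groups that overlap, and the call was lost without any 1 of 9 arrays of that line, KO replicates 3, 5, 6, 7 and 8 and WT replicates 3, 4, 6 and 7 (limma adjusted p up to 0.0933). It was also lost with slide as a block (-0.20, limma adjusted p = 0.25), with array weights, with only the compared groups in the fit and with no filter on dim probes. In ChREBPβ KO it gave -0.11 ± 0.09 (limma adjusted p = 0.662). The dim probe A_55_P2728013, at log2 intensities between 4.79 and 5.38, gave 0.07 ± 0.06 (limma adjusted p = 0.431) and 0.03 ± 0.06 (limma adjusted p = 0.925).

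Mnt, a broadly expressed repressor that pairs with Max and with Mlx, ran from 10.45 over 10.61 to 10.74 in total-line WT and from 10.59 over 10.81 to 11.17 in total ChREBP KO, and was called higher by 0.23 ± 0.09 (SE, limma adjusted p = 0.0424). That call was lost under 5 of 13 other settings, and without any 1 of 9 arrays of that line, KO replicates 1, 2, 3 and 4 and WT replicates 2, 3, 6, 7 and 8 (limma adjusted p up to 0.111). In ChREBPβ KO the difference was 0.12 ± 0.09 (limma adjusted p = 0.657). Its values spread more in the other 3 groups (SD 0.19 to 0.22) than in total-line WT (SD 0.10).

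Mga, the largest protein of the network, which carries a T-box besides its E-box binding domain, had 4 probes with positive differences in total ChREBP KO. A_55_P2618990 rose by 0.22 ± 0.07 (SE, limma adjusted p = 0.0145) and A_65_P04578 by 0.22 ± 0.07 (limma adjusted p = 0.0109), while A_55_P2618975 gave 0.13 ± 0.08 (limma adjusted p = 0.166) and A_52_P189030 gave 0.12 ± 0.07 (limma adjusted p = 0.181). On A_65_P04578 the WT arrays ran from 5.63 over 5.89 to 5.99 and the KO arrays from 5.91 over 6.02 to 6.29. The called probes lie next to each other on mm9, at chr2:119767158-119767217 and chr2:119767298-119767357, and both calls were lost with slide as a block. In ChREBPβ KO the 4 differences lay between -0.05 and 0.03, none called, and on A_65_P04578 the ChREBPβ KO effect was lower by -0.27 (limma adjusted p = 0.0428). That call was lost with wash batch as a block (limma adjusted p = 0.0506) and with slide as a block (limma adjusted p = 0.149), and kept in 17 of 32 fits that left out 1 array.

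Myc had the largest rise of the network in total ChREBP KO. On probe A_52_P108346 it ran from 7.01 over 7.75 to 8.41 in total-line WT and from 7.93 over 9.06 to 9.30 in total ChREBP KO, with 7 of 8 KO arrays above every WT array. It rose by 1.15 ± 0.21 (SE, 2.21-fold, limma adjusted p = 2.93e-05), and probe A_52_P278549 rose by 0.74 ± 0.14 (limma adjusted p = 5.21e-05). In the β line A_52_P108346 ran from 6.33 over 6.84 to 7.56 in WT and from 6.94 over 7.24 to 7.60 in ChREBPβ KO, a difference of 0.42 ± 0.21 (limma adjusted p = 0.365). The ChREBPβ KO effect minus the total ChREBP KO effect was -0.73, which did not pass adjustment (limma adjusted p = 0.0676). It passed under 3 of 12 other settings (limma adjusted p down to 0.0228). On A_52_P278549 it was -0.49 (limma adjusted p = 0.0673) and passed under 4 of 12 (limma adjusted p down to 0.0103). Within wash batches the difference on A_52_P108346 in total ChREBP KO ran from 0.08 (batch 2, with 1 KO array) to 1.87. That was the widest range of the 7 probes plotted by batch. Myc was lower in WT of the β line than in WT of the total line, by -0.88 ± 0.21 on A_52_P108346 (limma adjusted p = 0.000938) and by -0.52 ± 0.14 on A_52_P278549 (limma adjusted p = 0.00315).

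**Figure D3:**
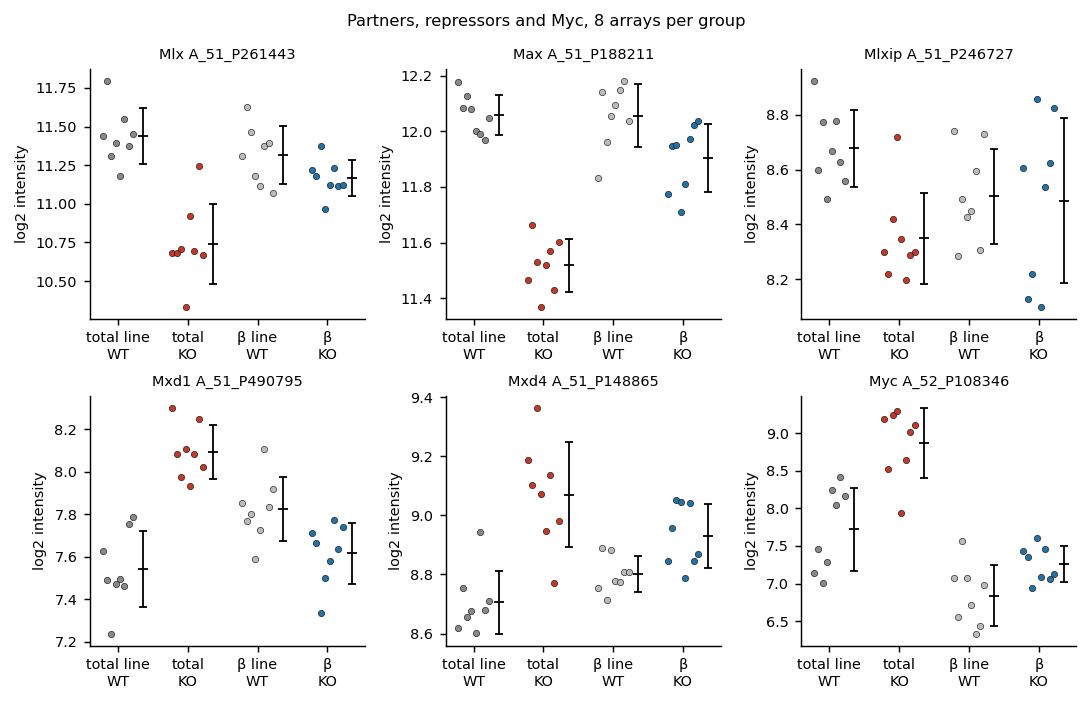
Log2 intensity of the brightest probe of Mlx, Max, Mlxip, Mxd1 and Myc, and of the dimmer Mxd4 probe, A_51_P148865. The brighter Mxd4 probe, not shown, was not called in total ChREBP KO. Each array is 1 point, with the mean and its SD beside each group of 8. Mlx and Max sit lower and Mxd1 and Myc higher in total ChREBP KO than in its WT group, while the ChREBPβ KO and WT points overlap in every panel; each panel has its own axis.

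**Figure D4:**
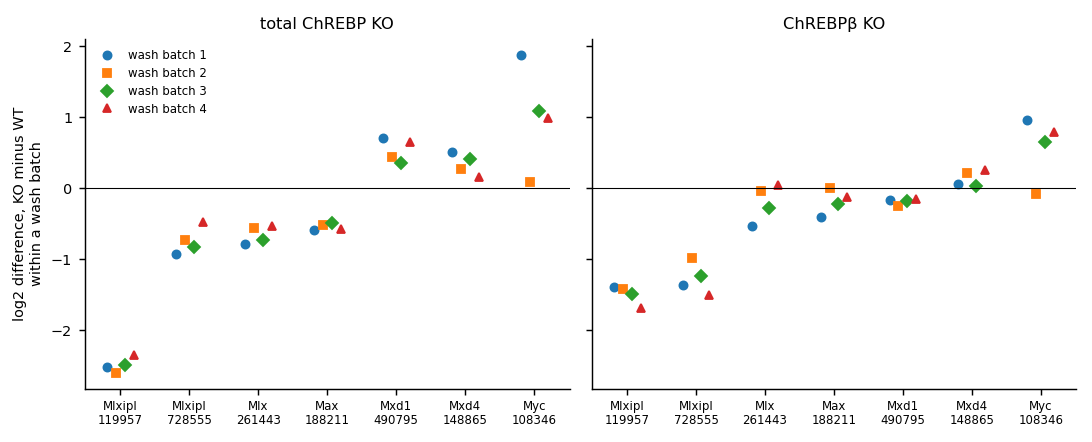
Log2 difference of KO minus WT within each of the 4 wash batches for 7 probes, total ChREBP KO at the left and ChREBPβ KO at the right, named by gene and the last 6 digits of the probe. A batch holds 1 to 3 arrays of each group, so each point rests on few animals. In total ChREBP KO all 4 points of a probe share a sign, and Myc runs from 0.08 to 1.87.

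In bulk tissue, fewer cells of a type and less RNA per cell cannot be told apart. The 9 brown adipocyte markers were well above background on all arrays, with 6 of 9 called in total ChREBP KO and 0 in ChREBPβ KO. Their mean log2 intensity was 14.71 ± 0.08 (SD, n = 8) in total ChREBP KO and 14.65 ± 0.11 in its WT group. The directions of the 6 calls are not given, and a mean over 9 genes can hide opposite changes. Of all gene names, 22.9% were higher and 21.1% lower in total ChREBP KO, and 1.37% higher and 1.33% lower in ChREBPβ KO. All 4 macrophage markers were called in total ChREBP KO, where their mean log2 intensity was 10.27 ± 0.19 (SD, n = 8) against 10.94 ± 0.31 in WT, and 0 in ChREBPβ KO (10.14 ± 0.33 against 10.28 ± 0.26). The 4 white adipocyte markers averaged 8.81 ± 0.22 in total ChREBP KO and 8.80 ± 0.19 in its WT group. Of 8 hepatocyte markers 0 were called in either KO, though their mean ran from 5.10 to 13.25 over the arrays. The part of macrophage RNA in the changes of the network was not tested.

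Other factors that bind E-boxes or belong to the MYC family, by their brightest probes, moved in both directions in total ChREBP KO. Of 14 measured of 16 listed, 3 were called higher and 4 lower, where 22.9% of all gene names were higher and 21.1% lower. The largest change was in Bmyc, a short MYC relative without the DNA-binding domain, which went from 9.89 ± 0.23 (SD, n = 8) in WT to 8.03 ± 0.09 in total ChREBP KO and fell by 1.85 (limma adjusted p = 4.37e-16). Srebf1, the sterol- and insulin-regulated lipogenic factor, fell by 1.04 (limma adjusted p = 6.27e-10), from 15.57 ± 0.10 to 14.52 ± 0.19. Mycn rose by 1.01 (limma adjusted p = 2.51e-05), from 5.31 ± 0.16 to 6.32 ± 0.40. In ChREBPβ KO 0 of the 14 were higher and 1 was lower, Bmyc, which fell by 0.58 (limma adjusted p = 0.000854) from 10.33 ± 0.23 to 9.75 ± 0.23, where 1.37% of gene names were higher and 1.33% lower. The fall of Bmyc differed between the KO lines by 1.27 (limma adjusted p = 2.78e-08).

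Of 29 measured regulators and cofactors of ChREBP, 6 were higher and 7 lower in total ChREBP KO, a share near the 22.9% and 21.1% of all gene names. By the mean of a gene's probes 14 were called, 9 of them higher. The share of all gene names called by that measure is not given, here or for the lists below, so such counts have no background. Ogt, the O-GlcNAc transferase, went from 0.21 by its brightest probe to 0.76 by that mean (limma adjusted p = 2.32e-09). It was named here after its values were seen. Prkaa2, a catalytic subunit of AMP-activated kinase, fell by 0.73 (limma adjusted p = 1.34e-09), and Phf2, a histone demethylase known as a ChREBP coactivator, fell by 0.65 (limma adjusted p = 5.54e-10). Ep300, an acetyltransferase that acetylates ChREBP, rose by 0.52 (limma adjusted p = 5.84e-05). In ChREBPβ KO limma called 0 of the 29, and 5 had an unadjusted p below 0.05. The median over the list was -0.01 in total ChREBP KO and 0.01 in ChREBPβ KO, against 0.01 and 0.00 over all gene names.

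Corepressors that MXD and MNT proteins recruit gave 4 higher and 4 lower of 14 in total ChREBP KO, where 22.9% of all gene names were higher and 21.1% lower. Brms1 fell by 0.48 (limma adjusted p = 1.26e-08), Suds3 by 0.41 (limma adjusted p = 0.000286), both parts of SIN3 complexes, and Arid4b, another SIN3 complex subunit, rose by 0.43 (limma adjusted p = 0.00863). Sin3b, a scaffold of these complexes, was the only gene of this list called in ChREBPβ KO (1.37% of all gene names were higher and 1.33% lower), where it rose by 0.18 (limma adjusted p = 0.0188) beside a rise of 0.17 in total ChREBP KO (limma adjusted p = 0.00227). When each gene was given by the mean of its probes, 5 of the 14 were called in total ChREBP KO and 0 in ChREBPβ KO. Subunits of the Polycomb complex that holds MGA gave 1 higher and 2 lower of 12 in total ChREBP KO, beside the same 22.9% and 21.1%. Tfdp1, the partner of E2F factors, fell by 0.60 (limma adjusted p = 6.19e-08), Hdac2, a deacetylase, by 0.19 (limma adjusted p = 0.00635), and Cbx3, a chromobox protein, rose by 0.14 (limma adjusted p = 0.0172). By the mean of its probes the count was 6 of 12 in place of 3. Limma called 0 of these 12 in ChREBPβ KO, and 1 had an unadjusted p below 0.05.

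Cofactors and turnover factors of MYC gave 3 higher and 3 lower of 15 in total ChREBP KO, a share near the 22.9% and 21.1% of all gene names. Gsk3b, the kinase that marks MYC for degradation, fell by 0.50 (limma adjusted p = 6.24e-06) in total ChREBP KO and by 0.45 (limma adjusted p = 0.00125) in ChREBPβ KO, where it was the only gene of this list called. Smarcb1, a SWI/SNF subunit that binds MYC, fell by 0.41 (limma adjusted p = 1.23e-05), and Bptf, a chromatin remodeller subunit, rose by 0.21 (limma adjusted p = 0.00559).

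Of 22 known MYC target genes of growth, 8 were higher and 2 lower in total ChREBP KO, where 22.9% and 21.1% of all gene names were. Cad, which starts pyrimidine synthesis, rose by 0.80 (limma adjusted p = 1.59e-07), from 10.87 ± 0.24 (SD, n = 8) to 11.67 ± 0.07. Srm, spermidine synthase, rose by 0.64 (limma adjusted p = 1.12e-11), from 10.18 ± 0.09 to 10.82 ± 0.14. Wdr43, a ribosome biogenesis factor, rose by 0.56 (limma adjusted p = 1.4e-07). The list's median was 0.08 in total ChREBP KO and -0.05 in ChREBPβ KO, against 0.01 and 0.00 over all gene names. In ChREBPβ KO limma called 0 of the 22, 4 had an unadjusted p below 0.05, and 1 was called by the mean of its probes. Whether the list moved with Myc itself was not tested.

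**Figure D5:**
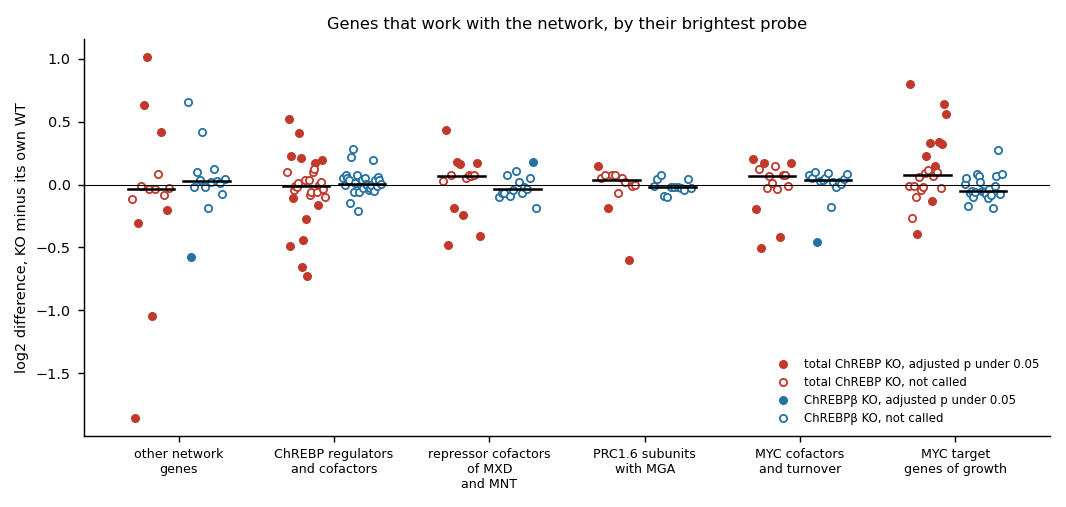
Log2 difference of each gene of the 6 lists by its brightest probe, in total ChREBP KO (red) and ChREBPβ KO (blue), with filled points for limma adjusted p under 0.05 and a bar at the median. Red points spread on both sides of 0 in every list, the lowest being Bmyc at -1.85, and 3 blue points are filled.

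The probes most like Mlxipl across the 32 arrays, by Pearson's r with A_55_P2119957, were those of Nudt4 (r = 0.954, Spearman's rho = 0.842), Ube2e1 (0.948 and 0.856), Mapk8ip1 (0.948 and 0.799), Vps37d (0.938 and 0.788) and Slc38a10 (0.938 and 0.796). These values describe arrays in 4 separate groups and carry no test. All 5 fell in both KO lines, which their choice by r with a probe that fell in both made likely. The log2 differences in total ChREBP KO and ChREBPβ KO were -2.31 and -0.72 for Nudt4, -0.89 and -0.31 for Ube2e1, -2.88 and -1.04 for Mapk8ip1, and -2.303 and -0.89 for Slc38a10. They were -2.71 and -2.386 for Vps37d, the gene next to Mlxipl on chromosome 5. Without the 2 arrays farthest from the median of A_55_P2119957, both of total ChREBP KO, r lay between 0.927 and 0.944. The rest of that group stayed in, so the groups remained apart. Once each group was centred on its own mean, r for these 5 lay between -0.33 and 0.46, so the likeness rests on differences between groups.

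Within groups, the highest centred r with Mlxipl were those of Gtf2h5 (0.669), Slc2a4 (0.625), the insulin-regulated glucose transporter, Ssr4 (0.612), Ndufv1 (0.612) and Tmem131 (0.606), each over 32 arrays. They were picked as the highest among all fitted probes of named genes outside the network. How high r would reach by such a choice alone was not tested, so no link to Mlxipl is read from them. Without the same 2 total ChREBP KO arrays these values lay between 0.587 and 0.628. Those arrays were far by their group, so this does not test which arrays weigh on the centred r. Over all arrays Ndufv1, a subunit of respiratory complex I, ran the other way (r = -0.912). Among members, the closest over all arrays were Max A_51_P188211 (r = 0.873), the upstream Mlxipl probe (0.863) and Mlx A_51_P261443 (0.769), and the most opposed were Mxd4 A_51_P148865 (-0.739) and Myc A_52_P108346 (-0.701). After centring, Max stood at -0.05 and Mlx at -0.15. The most downstream Mlxipl probe had an r of -0.06 with the brightest probe of its own gene.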

How the data were processed

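Per the labels, brown fat RNA of 32 mice was labelled with Cy3 and hybridised to Agilent arrays with 1 mouse per array. The authors deposited scanner files of Agilent Feature Extraction 10.10.1.1, whose median spot intensity was used here and is not normalized between arrays, and a table of log2 values, quantile normalized by the authors with filtering and with replicated probes merged. Here, spots other than controls were kept where well above background, found and positive on 26 or more of 32 arrays or on 6 or more of a group. Their log2 intensity was quantile normalized and spots of a probe were merged by the median, which left 37306 probes. The mean absolute gap to the log2 values that the authors deposited was 0.00298. The values have no absolute unit, and levels of different probes were not compared.

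Arrays have no read depth, so their number limits the precision. On single arrays, 62.7% to 69.7% of probes were well above background. No spot was saturated, and pairwise correlations of arrays ran from 0.956 to 0.9975.

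Each probe was fitted by limma 3.58.1 in R 4.3.3 with a mean for each of the 4 groups. Benjamini-Hochberg adjustment covered every probe of the fit, with a threshold of 0.05. The procedure was also run on simulated data with independent noise for each probe. These held no slide, wash batch or muscle RNA, so they cannot vouch for calls that depend on those. The labels do not say which mice shared a litter or a cage. Same-numbered arrays did not correlate best with each other, and no pairing was used. Wash batches (4) came from the labels and slides (15) from the file headers.

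The 10 genes, the gene lists and the tests were chosen with earlier results of these data known. Every member probe is named. A gene of another list is given by its brightest probe, and named where among the 3 largest called changes of its list in that KO. Of the listed genes, Mxd3, Tcfl5 and Hnf4a had no probe past the filter, and Usf3 and Cip2a were read under older array names. Probe coordinates are those of the files (mm9), promoters are those of RefSeq (GRCm38.p6), and none were converted. The promoter table used holds no entry for Myc. The alternatives were other scalings, normexp background correction, the deposited table, other filters, wash batch, slide and replicate blocks, array weights, marker covariates, a threshold of 0.01, only the groups compared, the mean of a gene's probes and leaving out each array.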

Additional observations from a re-analysis of the deposited data

Results flagged for a closer look

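The KO effects differed between the lines on 6 of the 22 probes by the limma interaction, beside 24.1% of all probes. ChREBPβ KO effect minus total ChREBP KO effect was 0.98 for Mlxipl A_55_P2119957, 0.55 for Mlx A_51_P261443, 0.39 for Max A_51_P188211, -0.76 for Mxd1 A_51_P490795, -0.24 for Mxd4 A_51_P148865 and -0.27 for Mga A_65_P04578 on the log2 scale. With wash batch as a block the calls of Mxd4 (limma adjusted p = 0.0658) and Mga (limma adjusted p = 0.0506) were lost.

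In 6 of the 88 sets of 8 arrays, 1 array stood apart from the other 7, where chance gives about 1 in 20, or 4.4. In the WT mice of the β line these were replicate 3 for Mlx A_66_P117739, at 5.03 against 7.64 to 8.38, and replicate 1 for Mga A_55_P2618990, at 5.77 against 6.02 to 6.23. In the WT mice of the total line replicate 6 stood apart for Mxd4 A_51_P148865, at 8.94 against 8.60 to 8.75, and for Mga A_55_P2618975, at 9.68 against 9.97 to 10.18. In total ChREBP KO replicate 4 stood apart for Mlxip A_51_P246727, at 8.72 against 8.196 to 8.42, and for Mxi1 A_55_P2806788, at 11.14 against 10.37 to 10.73. Of the total ChREBP KO calls on these probes, only that of Mlx A_66_P117739 changed when the array that stood apart was left out.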

How the results depend on the processing

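No result changed direction past the threshold, and the cause of the changes below was not tested. Of 22 probes, 10 (slide as a fixed block) to 17 (wash batch block) were called in total ChREBP KO, 2 in ChREBPβ KO under every setting run, and 4 (no filter on dim probes) to 9 for the difference of the effects. Leaving out single arrays gave 12 to 15, 2, and 4 to 9. Between the WT groups, 3 were called with the marker means as covariates. Over all probes, 953 were called in ChREBPβ KO, but 148 with slide as a fixed block and 1554 without WT replicate 5 of that line, and 14626 between the WT groups, but 5327 with the marker covariates.

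On Mlxipl A_55_P2045158 the total ChREBP KO difference passed with wash batch as a block (0.15, limma adjusted p = 0.0225) and with the covariates (0.1499, limma adjusted p = 0.039), and ran from 0.0986 to 0.169 without single arrays. Its difference between the effects passed with normexp (-0.23), wash batch (-0.26), slide as a random block (-0.21) and the covariates (-0.25), and ran from -0.2523 to -0.1819 without single arrays. That of A_55_P2728555 passed with wash batch (-0.43) and the covariates (-0.444), and ran from -0.4238 to -0.3032. By the mean of a gene's probes, total ChREBP KO calls were 5 for the repressor cofactors and 6 for the Polycomb subunits. ChREBPβ KO calls were 0 for the former and 1 for the MYC targets. No share of all gene names by that measure is given beside these counts.

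Replicate numbers were not taken to pair the samples. Deviations of same-numbered arrays correlated from -0.304 to 0.08 in the total line and from -0.196 to 0.532 in the β line. In the β line 6 of 8 such pairs lay above 0.1, but in both lines 0 arrays correlated best with their own number. Whether numbers of the β line mark a shared litter or cage was not tested. With a replicate block, 14 probes were called in total ChREBP KO, 2 in ChREBPβ KO, 6 for the difference and 8 between the WT groups.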
